A study of Cavia porcellus with 12 samples.

Results

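let-7a and let-7f are miRNAs of the let-7 family, and 5 human precursors carry them in the tables described here: hsa-let-7a-1, hsa-let-7a-2, hsa-let-7a-3, hsa-let-7f-1 and hsa-let-7f-2 (the species prefix is left out below). They were chosen by name, as every row whose name ends in 1 of these precursors, and they are 5 of the 289 precursors listed. Ventricular cardiomyocytes of the guinea pig (Cavia porcellus; Hartley animals, adult and female) were kept at room temperature with 10 µM doxorubicin (DOX), an anthracycline used in chemotherapy, or with the vehicle DMSO, for 1 h or 22 h. Small RNA was sequenced and aligned to human sequences, and the sample labels give 12 libraries in 4 groups of 3 (DMSO 1 h, DOX 1 h, DMSO 22 h and DOX 22 h). All groups were enzymatically isolated primary cells, and the controls carried the vehicle only.

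The let-7 miRNAs are made from hairpin precursors, and the 5p arm is the strand that usually enters the silencing complex while the 3p arm is mostly degraded. A miRNA finds its targets mainly through the seed, a short stretch near its 5′ end, and the members of the family share that seed. Family members are abundant in differentiated tissues, the adult heart among them, and they are known for repressing genes of growth and proliferation such as RAS, MYC and HMGA2. In mammals let-7a-1 and let-7f-1 lie in 1 cluster with let-7d, let-7a-2 lies near mir-100 and mir-125b-1, let-7a-3 near let-7b, and let-7f-2 near mir-98.

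An entry of the tables is 1 sequence under 1 precursor. The 20-base 5p sequences, the most abundant, and the 21-base ones, the longest listed, are shown. The levels below sum these and the shorter forms. The capitals mark AGGTAG, which lies in the let-7 seed and opened every trimmed or extended form listed.
let-7a-5p, 20 bases: AGGTAGtaggttgtatagtt
let-7a-5p, 21 bases: AGGTAGtaggttgtatagttt
let-7f-5p, 20 bases: AGGTAGtagattgtatagtt
let-7f-5p, 21 bases: AGGTAGtagattgtatagttt
Counted from the first base listed, the 20-base sequences of let-7a and let-7f differ by 1 substitution, G10A, outside the seed. The 5p sequence is the same for let-7a-1, let-7a-2 and let-7a-3, and again for let-7f-1 and let-7f-2. The 21-base sequence of let-7f stood under let-7f-2 alone, whereas that of let-7a stood under all 3 let-7a precursors.

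The 3p arms tell some of the precursors apart. Below, capitals mark the bases that differ from the sequence of let-7a-1.
3p of let-7a-1 and let-7a-3: atacaatctactgtctttct
3p of let-7f-2: atacaGtctactgtctttct
3p of let-7f-1: atacaatctaTtgCcttCct
3p of let-7a-2: GtacaGCctCctAGctttcC
The 3p sequence of let-7f-2 differed from that of let-7a-1 by A6G alone. That of let-7f-1 differed by C11T, T14C and T18C, and that of let-7a-2 by 7 substitutions. Of these, T20C falls on the last base listed. A rarer, shifted 3p sequence of let-7a-1 and let-7a-3 also had C at that place, so T20C does not tell the precursors apart. let-7a-1 and let-7a-3 could not be told apart by the 5p arm or by this main 3p sequence.

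The deposited files hold 3 tables. The first joins the DOX 1 h and DMSO 1 h groups, the second the DOX 22 h and DMSO 22 h groups, and the third the DOX groups of both times. The value used here is the mean normalised read count of an entry over both sides of a table. Because this mean pools both sides, it gives no DOX value to set against a DMSO value at 1 h. The authors' fold changes and derived group values were not used. The 5 precursors had 39 entries in the table for 1 h, 33 in that for 22 h and 48 in the third. A mean could be used for 35, 33 and 48 of them, and none was at 0. The 6 rows that carry only a mature name, let-7a-5p and let-7f-5p among them, were listed at 0 in the third table. Entries with the same sequence under several precursors were summed.

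The names of predicted miRNAs in the 22 h table and in the third table name replicate 1 alone, and each mean there could be written as a sum of whole reads from 2 libraries with fixed weights. The reads of 3 single libraries, DOX 22 h, DMSO 22 h and DOX 1 h, each replicate 1, could therefore be recovered. With 1 library on a side no comparison of conditions has a replicate check, no p-value is given, and the intervals printed are exact 95% intervals that cover counting error only. The entries with 1 solution held 474736 reads for DOX 22 h, 440362 for DMSO 22 h and 623625 for DOX 1 h. The DOX 22 h library stands in both tables, so both ratios below share it.

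Marker miRNAs of heart muscle cells (mir-1, mir-133a, mir-208a, mir-208b and mir-499a) were all above 0 and made up 33.5% to 37.1% of the summed means of a table. The endothelial marker mir-126 held 3.24% to 4.41%, and mir-143 and mir-145, known from smooth muscle and fibroblasts, held 19.4% to 20.96%. Red cell markers held at most 0.00727% and leukocyte markers at most 0.00884%. The part of other cell types in the let-7 levels was not tested, and fewer cells of a type and less RNA per cell cannot be told apart.

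let-7f-5p had the highest summed usable mean of the family's 5p arms in each of the 3 tables. Its summed mean was 77623 in the 1 h table, 60357 in the 22 h table and 78307 in the third, which is 1.32%, 1.26% and 1.30% of the summed means of that table. let-7a-5p had summed means of 71338, 46282 and 64232, which is 1.21%, 0.969% and 1.07%. let-7f-5p over let-7a-5p was 1.09, 1.30 and 1.22 in these means. Both arms together made up 48.2%, 48.7% and 48.9% of the family's 5p means. The tables were normalized separately, so levels are set side by side only as shares.

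let-7g-5p lay between them, at 1.24%, 1.08% and 1.15% of the 3 tables, and let-7i-5p followed at 0.884%, 0.778% and 0.786%. The remaining members were lower. let-7d-5p held 0.217% to 0.243%, let-7c-5p 0.101% to 0.125%, let-7e-5p 0.0806% to 0.110%, let-7b-5p 0.0815% to 0.106%, and miR-98-5p 0.0190% to 0.0213%. The order let-7f, let-7g, let-7a, let-7i, let-7d, let-7c held in all 3 tables. They are not independent in this, because the decimal place of the 1 h and 22 h means was set by the third table. The DOX 22 h library also stands in both the 22 h table and the third. The 21-base sequence of let-7g was listed at 1 h only and had no usable mean, so let-7g may be understated, and at 1 h, where let-7f lay 4954 above it, a mean over that difference would put let-7g first. The spread between replicates is not known for these means, so neighbours in this order are not shown to differ beyond it.

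**Figure D1:**
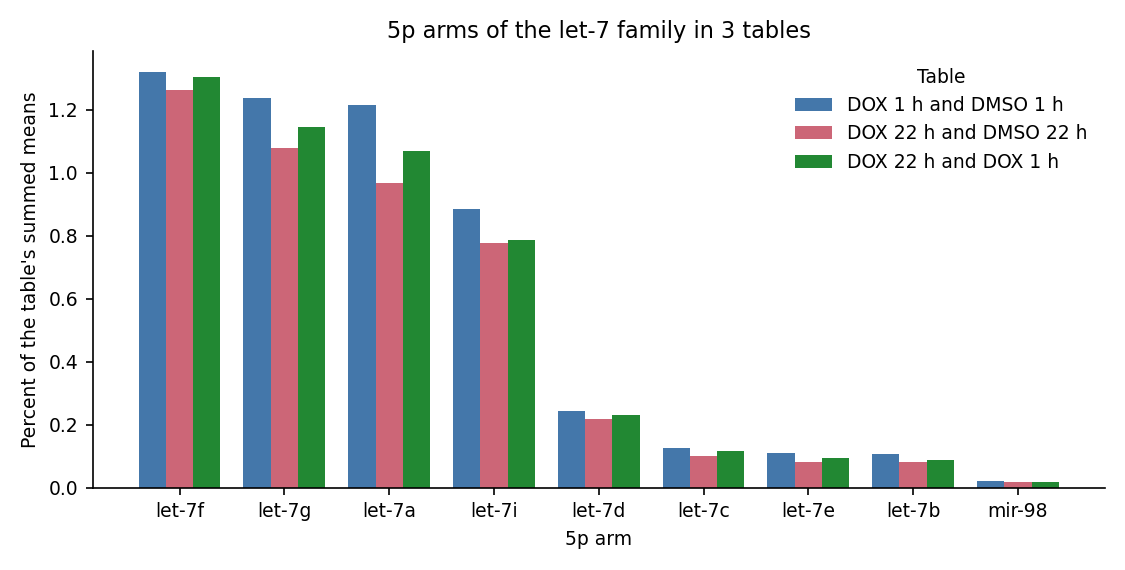
Summed mean normalised read counts of the 5p arm of each let-7 family member as percent of all means of the table (y axis), 1 bar for each of the 3 tables; the means pool both sides of a table, so no error bar can be drawn. let-7f stands highest at 1.26% to 1.32% (with the 21-base let-7g sequence not counted), let-7g, let-7a and let-7i follow, and the other members stay under 0.25%.

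Within the 3 single libraries the ratio of let-7f-5p reads to let-7a-5p reads needs no scaling, and it changed with the length of the sequence. For the 21-base form, whose reads had 1 solution for both miRNAs, it was 1.46 (1.40 to 1.53) in DMSO 22 h, 1.31 (1.25 to 1.36) in DOX 22 h and 1.36 (1.32 to 1.40) in DOX 1 h. For the 18-base form it was 0.983 (0.914 to 1.06), 1.04 (0.974 to 1.12) and 1.09 (1.03 to 1.15) in the same order. The 17-base form had 1.06, 1.23 and 1.14. let-7f reads were thus above let-7a reads in the 21-base form in all 3 libraries, and near equal to them in the 18-base form.

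The 16-base let-7a sequence also stood under let-7c. With its let-7c reads included the ratio was 1.40 (1.27 to 1.54) in DMSO 22 h, 1.33 (1.21 to 1.46) in DOX 22 h and 1.44 (1.33 to 1.55) in DOX 1 h, and with the let-7a entries alone it was 1.83, 1.73 and 1.95. The ratio of this form therefore depends on how the shared reads are counted, and it stayed above 1 either way.

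The 20-base forms, which hold most reads, have several whole-number solutions (given below), and so do the 19-base let-7f entries. With the solution used, the ratio over all forms was 1.34 in DMSO 22 h, 1.27 in DOX 22 h and 1.18 in DOX 1 h. With the second nearest solution for let-7a alone it was 2.09, 0.945 and 1.62, so that neither the order of the libraries nor, in DOX 22 h, the side of 1 is fixed by the reads.

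**Figure D2:**
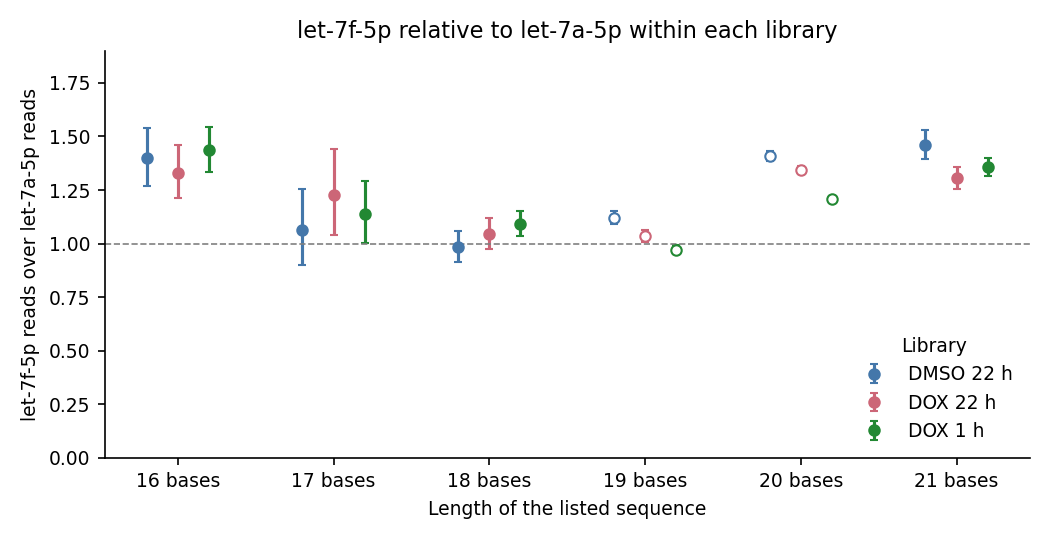
Reads of let-7f-5p over reads of let-7a-5p (y axis) for each length of the listed sequence in 3 single libraries; bars are exact 95% intervals for counting error, the dashed line marks equal reads, open points rest on 1 of several whole-number solutions, and the 16-base let-7a reads include those under let-7c. The 21-base form lies between 1.31 and 1.46 and the 18-base form close to 1.

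Sequences of one miRNA that differ at their ends are called isomiRs. All 5p entries of a precursor started at the same base, and the forms with a mean above 10 differed only in the 3′ end, from 16 to 21 bases. Whether bases were trimmed from the 5′ end of the reads before deposit was not tested, so the start and the lengths are those of the listed sequences. The 20-base form made up 66.0%, 65.6% and 66.5% of let-7a-5p in the 3 tables and 68.7%, 69.2% and 69.2% of let-7f-5p. The 19-base form followed with 20.2% to 21.4% of let-7a-5p and 16.6% to 17.6% of let-7f-5p. The 21-base form held 7.52% to 8.30% and 8.48% to 9.08%, the 18-base form 3.23% to 3.35% and 2.61% to 2.92%, and the 16-base form, without its copy under let-7c, 1.16% to 1.27% and 1.73% to 1.79%. The 17-base form was the rarest of these at 0.526% to 0.604% in either miRNA, under both the 16-base and the 18-base form. Forms of 15 bases were listed at 1 h only and had no usable mean.

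**Figure D3:**
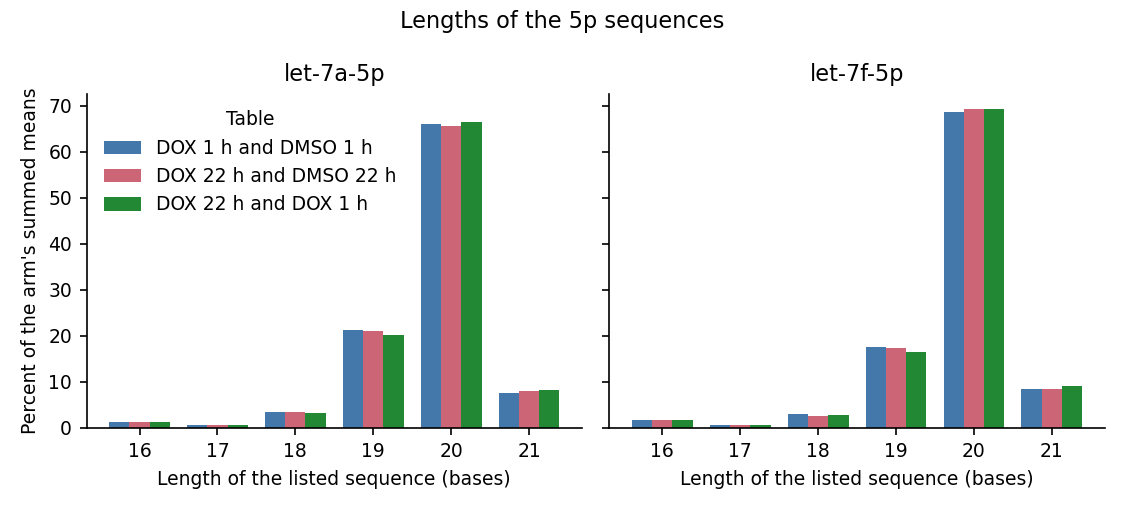
Share of each sequence length in the summed means of let-7a-5p and of let-7f-5p (y axis, percent of the arm), 1 bar for each table; the means pool both sides of a table. The 20-base sequence holds 65.6% to 69.2% of either arm and the 19-base sequence 16.6% to 21.4%.

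In the single libraries the reads of the 21-base form were set over those of the 19-base form, which leaves out the 20-base form and its several solutions. For let-7a-5p, solved in both lengths, the ratio was 0.349 (0.335 to 0.363) in DMSO 22 h, against 0.412 (0.397 to 0.427) in DOX 22 h and 0.409 (0.398 to 0.421) in DOX 1 h. For let-7f-5p the solution used for its 19-base form gave 0.455, 0.519 and 0.572, and the other solution, with 151 reads of that form in DMSO 22 h, would give 31.3, 0.250 and 9.50. Of the 7 family members with 1 solution for both lengths, 5 had their lowest ratio in DMSO 22 h, namely let-7a, let-7b, let-7c, let-7d and let-7e, with 0.775 against 0.959 and 0.987 for let-7c. Except for let-7a, the intervals of DMSO 22 h and DOX 22 h overlapped in each of these. For let-7b they were 2.39 (2.13 to 2.69) and 2.49 (2.24 to 2.76), and for let-7d 0.538 (0.497 to 0.583) and 0.606 (0.562 to 0.653). let-7i had its highest ratio in DMSO 22 h, at 0.946 (0.902 to 0.993) against 0.823 (0.784 to 0.865) and 0.851 (0.817 to 0.887), and mir-98 had 0.354 against 0.381 and 0.315. These are 3 libraries without replicates, and whether the library or the exposure moved the ratio cannot be told apart.

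The question behind the DOX and DMSO libraries at 22 h is whether exposure changed a miRNA. Over both miRNAs and both arms 26 entries had 1 solution, and 0 of the 26 differed by 2-fold or more between DOX 22 h and DMSO 22 h, where 10.9% of the 1216 entries solved were past 2-fold in either direction. The 26 entries are 12 distinct sequences. Of the 26 entries, 24 had at least 100 reads over both libraries, and of all entries with at least 100 reads 3.61% were past 2-fold. The ratios of scaled reads of all 26 entries ranged from 0.745 to 1.55 with a median of 1.01.

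The 21-base let-7a form had 4244 reads in DOX 22 h and 3231 in DMSO 22 h, a ratio of scaled reads of 1.17 (1.12 to 1.22). The 19-base let-7a form had 10305 and 9266 reads and a ratio of 0.989 (0.962 to 1.02). The 18-base form had 1637 and 1472 reads and a ratio of 0.989 (0.921 to 1.06). The 17-base form stood at 0.843 (0.711 to 0.998) and the 16-base form at 0.962 (0.856 to 1.08), so that the 21-base form was the let-7a form furthest above 1.

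For let-7f-5p the 21-base form had 5540 reads in DOX 22 h and 4721 in DMSO 22 h, a ratio of 1.04 (1.00 to 1.09). The 18-, 17- and 16-base forms stood at 1.05 (0.978 to 1.13), 0.971 (0.829 to 1.14) and 0.911 (0.835 to 0.994). Summed over the forms with 1 solution the ratio was 1.02 (1.00 to 1.05) for let-7a-5p and 1.02 (0.992 to 1.06) for let-7f-5p. Of the 314 entries with at least 500 reads, 60.5% had a ratio at or under either value, and their lower and upper quartiles were 0.839 and 1.12.

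The 20-base forms carry most reads but have several whole-number solutions, because the same means arise when 5754 reads are added to DOX 22 h and others taken from the other libraries. The solution whose scaled reads differed least between the libraries was used. It gave 33024 reads in DOX 22 h, 27928 in DMSO 22 h and 54444 in DOX 1 h for let-7a-5p, with a ratio of DOX 22 h to DMSO 22 h of 1.05. For let-7f-5p it gave 44338, 39356 and 65870 reads and a ratio of 1.00. The other solutions lay at about 0.32 and 3.5 for let-7a-5p, and at 0.12 to 0.59 and 1.70 to 8.1 for let-7f-5p. The 19-base let-7f form had 1 other solution, in which 44 or 107 reads would have been left in DMSO 22 h, and the solution used gave 10670, 10385 and 15744 reads and a ratio of 0.914 (0.889 to 0.939).

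Between DOX 22 h and DOX 1 h no entry of the 26 was past 2-fold, where 6.89% of 1190 entries with at least 20 reads were, and 1.73% of those with at least 100 reads. All 22 of the solved 5p entries had lower scaled reads in DOX 22 h than in DOX 1 h, with ratios from 0.637 to 0.944 and a median of 0.803. They are 9 distinct sequences, and copies of a sequence under several precursors divide the same reads. Of the 4 solved 3p entries 1 was lower in DOX 22 h, and the ratios of the 4 ran from 0.908 to 1.55. Of all entries, 45.2% had a ratio below 1, and 56.1% of those with at least 500 reads. Summed over the solved forms the ratio was 0.818 (0.803 to 0.834) for let-7a-5p and 0.786 (0.765 to 0.807) for let-7f-5p.

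The forms were alike in this. For let-7a-5p the 21-, 19-, 18-, 17- and 16-base forms stood at 0.823, 0.817, 0.809, 0.760 and 0.864. For let-7f-5p the 21-, 18-, 17- and 16-base forms stood at 0.791, 0.775, 0.818 and 0.767. Of the 335 entries with at least 500 reads, 19.4% had a ratio at or under that of let-7a-5p and 12.2% at or under that of let-7f-5p, and the lower quartile was 0.852. Both miRNAs lay under that quartile and inside the central 95% of these entries, which began at 0.710. Entries of 1 library share its scaling and are not replicates, and the change is below the 2-fold used as a call.

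**Figure D4:**
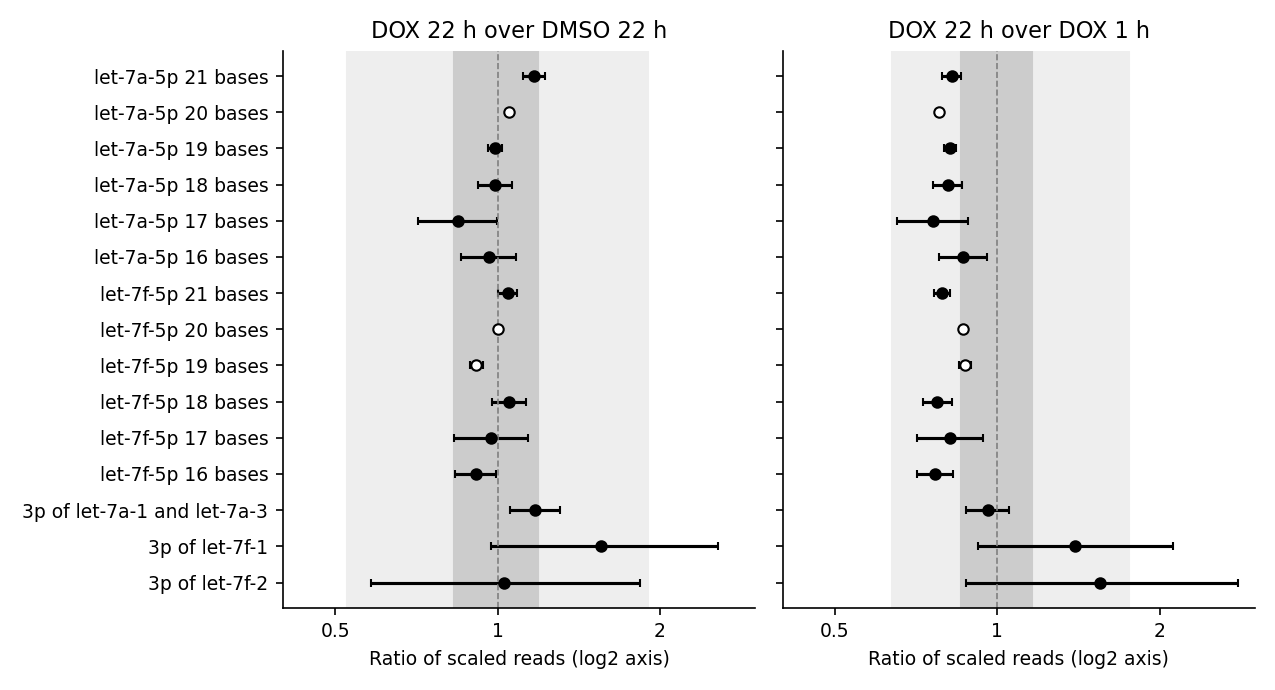
Ratio of scaled reads (x axis, log2) of each listed form in DOX 22 h over DMSO 22 h (left) and over DOX 1 h (right), each from 1 library a side; bars are exact 95% counting intervals, open points are forms with more than 1 whole-number solution, and the dark and light bands hold the central 50% and 95% of entries with at least 100 reads. The solved 5p forms lie near 1 on the left and between 0.760 and 0.864 on the right.

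The rest of the let-7 family was examined in the same way. There were 41 solved 5p entries of let-7b, let-7c, let-7d, let-7e, let-7g, let-7i and mir-98. In DOX 22 h against DMSO 22 h, 1 of the 41 was past 2-fold, downward, where 10.9% of all solved entries were past it. Against DOX 1 h, 4 were past 2-fold, 3 downward and 1 upward, where 6.89% of all entries with at least 20 reads were. The median ratio against DOX 1 h was 0.852 for let-7b, 0.783 for let-7c, 0.871 for let-7d, 0.738 for let-7e, 0.762 for let-7g, 0.926 for let-7i and 1.03 for mir-98. The values of let-7a-5p and let-7f-5p fall among these.

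Among the genes that lie beside the members, the 5p arm of mir-100 held 0.866% to 1.00% of a table and that of mir-125b-1 0.804% to 0.948%. Sequences of mir-125b-1 were not summed with those listed under mir-125b-2, so its level cannot be set against the summed level of let-7a-5p. The median ratios of DOX 22 h to DMSO 22 h were 0.921 for mir-100 over 3 solved entries and 0.653 for mir-125b-1 over 5, against 0.959 for the 5 solved 5p entries listed under let-7a-2. let-7b and mir-98, which lie beside let-7a-3 and let-7f-2, were far below them, as given above. The level of a 5p sequence listed under several precursors cannot be assigned to let-7a-2 or to any other single one of them, for the reason that follows.

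The reads of 1 sequence were divided evenly over the precursors that share it. For sequences listed under 3 let-7a precursors the share of 1 precursor in a library ran from 29.0% to 37.3%, for those under 2 precursors from 45.8% to 54.2%, and for the 16-base let-7a sequence, listed under let-7a-1, let-7a-2, let-7a-3 and let-7c, from 22.9% to 26.9%. The exact interval held the even share in 72 of 72 shares of 9 sequences. The 19-base let-7a sequence shows it with the most reads: in DOX 1 h, 5432 of its 16214 reads stood under let-7a-1, 5375 under let-7a-2 and 5407 under let-7a-3. For a 5p sequence listed under several precursors, the level under 1 of them is thus a near-fixed fraction of its whole level. The 21-base let-7f sequence, listed under let-7f-2 alone, is not divided in this way. The even division holds across let-7a and let-7c as well, where the 16-base form had 172, 182 and 324 reads under let-7c in DMSO 22 h, DOX 22 h and DOX 1 h.

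**Figure D5:**
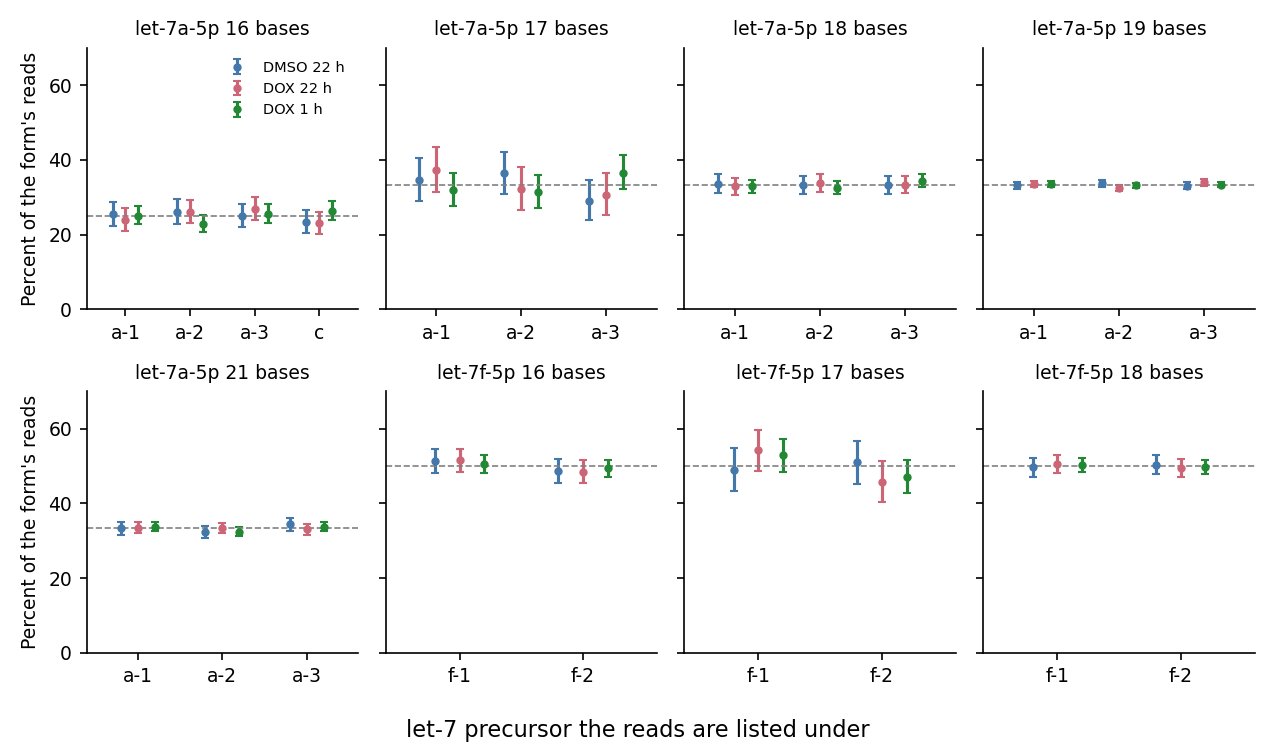
Percent of the reads of a 5p sequence that stood under each precursor listing it (y axis), in 3 single libraries, with exact 95% intervals; the dashed line is the even share. All intervals contain the even share of 25%, 33.3% or 50%.

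The summed mean listed under let-7f-2 was higher than that under let-7f-1, 42684 against 35622 in the third table, and the 21-base form listed under let-7f-2 alone had a mean of 7112 there. The 3 let-7a precursors had 21387, 21335 and 21511.

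The 3p arms were rare. The 3p arm of let-7a-1 and let-7a-3 had a summed mean of 972 in the 1 h table, 723 in the 22 h table and 958 in the third for its main sequence. That of let-7f-1 had means of 47.5, 39.4 and 49.6, and that of let-7f-2 had 37.6, 26.9 and 27.0. The 3p arm of let-7a-2 had 14.5 at 1 h and 14.2 in the third table, and it was not listed at 22 h. The 5p arm outnumbered the 3p arm 64.0- to 72.3-fold for let-7a and 795- to 910-fold for let-7f.

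The third table, which lists more rare sequences, held 16 entries of 3p arms. All 5 precursors were represented there, with 31.1 over 5 entries for let-7a-2, 67.6 over 4 for let-7f-1 and 29.7 over 2 for let-7f-2. The rare entries were shifted, trimmed or extended copies or had other last bases, with means from 1.45 to 9.76.

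In the single libraries the 3p sequence of let-7a-1 and let-7a-3 had 828 reads in DOX 22 h, 628 in DMSO 22 h and 1109 in DOX 1 h. Its ratio was 1.17 (1.06 to 1.30) against DMSO 22 h and 0.960 (0.876 to 1.05) against DOX 1 h. As a share of both arms of let-7a the 3p reads were 1.63% in DOX 22 h, 1.45% in DMSO 22 h and 1.35% in DOX 1 h with the 20-base solution used, and 1.21%, 2.24% and 1.84% with the second nearest, so no order of the libraries is read from the share.

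The 3p sequence of let-7f-1 had 51, 29 and 47 reads in DOX 22 h, DMSO 22 h and DOX 1 h, and that of let-7f-2 had 29, 25 and 24. The ratios against DMSO 22 h were 1.55 (0.973 to 2.56) for let-7f-1 and 1.03 (0.583 to 1.84) for let-7f-2. Against DOX 1 h they were 1.39 (0.920 to 2.12) and 1.55 (0.873 to 2.79). A difference was not detectable at this depth for either.

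There were 106 precursor arms with a summed mean of at least 1000 in every table. The arms of the 5 members are counted in these but were not compared. Among the others, the arms whose share of the table moved most like that of let-7a-5p were mir-335 5p, mir-149 5p and mir-29c 3p. Their distances were 0.0454, 0.0470 and 0.0616 in log2 units over the 3 tables. For let-7f-5p they were mir-15a 5p, mir-27a 3p and mir-652 3p, at 0.0277, 0.0282 and 0.0547. The 3 tables share libraries, and 3 points describe a pattern only coarsely.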

How the data were processed

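Small RNA libraries had been aligned by the authors to human sequences (hg19 in the submitters' processing notes) in the BaseSpace Small RNA application and normalised with DESeq2. The deposited means are a signal, normalised read counts averaged over both sides of a table, and other, undivided digits in the tables for 1 h and 22 h, where the decimal mark was lost. Its place was set by the value that the third table gives for an identical entry, which was possible for 1506 of 1610 entries at 1 h and 1323 of 1335 at 22 h. The remaining 6 columns of a table hold the authors' fold changes, errors, p-values, status and derived group values, and they were not used. Every mean above 0 was a whole multiple of a fixed step within 0.0001 at 22 h (1323 of 1323) and in the third table (2369 of 2369), and no step was found at 1 h. Reads were solved from weights of 731 and 822 at 22 h and of 9 and 7 in the third table. One library is shared: weights 731 and 9 satisfied both tables in 1052 of 1052 entries with 1 solution, and other pairings did so in 107 to 132. Names of predicted miRNAs identified it as DOX 22 h, replicate 1. Of 1323 entries, 1216 had 1 joint solution. The depth of the whole libraries is unknown, and the means summed to 5874566, 4776593 and 6005178 in the tables for 1 h, 22 h and both DOX times.

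Arms were assigned by start position (3p beyond position 30), and 0.5 was added to reads before a ratio of scaled reads between libraries. Ratios within 1 library used the reads as they were. Intervals are exact (Poisson or Clopper-Pearson, 95%). A ratio of at least 2 either way was called. The 5p forms named were the most abundant ones, and of these the 20-base and 21-base sequences are printed. Of the 3p sequences the main one of each precursor is printed, and the rare ones are given by their range. Sequences under let-7c and let-7d were named after their values were seen. Members, lists and rules were chosen with earlier results of these data known. Recovery was tested on simulated data, but the rule for choosing among several solutions was not part of that test. Alternatives were the highest entry of a sequence only, limits on means and reads, other scaling and other solutions. Python 3.11.15, numpy 2.4.6, pandas 2.3.3 and scipy 1.17.1 were used.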

Additional observations from a re-analysis of the deposited data

How the results depend on the processing

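No test was run, so the alternatives show how far values moved. Taking the highest precursor entry of a sequence in place of the sum put let-7a-5p and let-7f-5p at 1.12%, 1.01% and 1.07% of the tables for 1 h, 22 h and DOX 22 h with DOX 1 h, and let-7f over let-7a at 1.77, 2.12 and 1.99. As percent of the let-7 family they held 48.2%, 48.7% and 48.9%. With means of at least 10 the 3p share of let-7f in the third table was 0.0978%. Scaled by recovered reads, the ratio of DOX 22 h to DMSO 22 h was 1.09 for let-7a-5p and 1.03 for let-7f-5p, and that to DOX 1 h 0.810 and 0.873. Alternatives chosen after seeing the data were the forms with 1 solution, which gave 1.02 and 1.02 against DMSO 22 h and 0.818 and 0.786 against DOX 1 h, and other solutions for the 20-base form. The second nearest gave 2.19 and 1.47 for let-7a-5p and 1.42 and 1.19 for let-7f-5p, and the third 0.503 and 0.408, and 0.687 and 0.606, so the all-form sums rest on the solution used. The other 57 alternative values stayed within a binomial interval of the main value, which for pooled means is only a yardstick and no measure of their error. Many of these had little or no room to move, so their number is no measure of stability. The limits on means and reads left out few or no reads, and a share of the family cannot alter let-7f over let-7a. No paired analysis was possible because the means pool libraries or hold 1 library a side, and for the same reason no replicate could be left out. Depth limits the 3p arms of let-7f, and the lack of replicates limits every comparison of conditions.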

Other observations

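Letters of let-7a also stood under other precursors. Under let-7d, 5 sequences matched let-7a up to an added last base (in capitals), among them AGGTAGtaggttgtataA with a mean of 16.8 at 1 h and 12.5 in the third table, AGGTAGtaggttgtataT with 6.24 in the third table, and AGGTAGtaggttgtatagttA, which was listed at 1 h without a usable mean. Under let-7c, the 15-base sequence AGGTAGtaggttgta had means of 19.8, 17.3 and 19.4. One rare entry under let-7a-3, with a mean of 3.09 in the third table, carried A1G and G10A, counted from the first base listed, and so had the base of let-7f at position 10. A 17-base let-7f form that ended otherwise, listed under let-7f-1 and let-7f-2, had a summed mean of 7.31.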
